A study of Mus musculus with 28 samples.

Results

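Trimethylation of lysine 4 of histone H3 (H3K4me3) was set against acetylation of lysine 27 of the same histone (H3K27Ac) at promoters and distal sites of WT mouse embryonic stem cells (mESCs). Each protein-coding gene was classed by the peaks within 1 kb of its transcription start sites (TSSs) in the WT list of each mark. Of 22359 genes, 4235 (18.9%) carried both marks at the same TSS, 10339 (46.2%) carried H3K4me3 only, 47 (0.21%) carried H3K27Ac only and 7713 (34.5%) carried neither. The remaining 25 genes held the marks at different TSSs. Away from promoters, the lists held 19357 H3K4me3 peaks and 9185 H3K27Ac peaks, which were classed by whether they overlapped the other list.

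The cells were HATX WT mESCs, a haploid line of mixed genomic background whose X chromosome carries Xist under doxycycline control, grown in serum and LIF. No doxycycline is named in the labels of these ChIP-seq libraries. Of the 28 samples of the series, 4 were used for the classes: 2 libraries against H3K4me3 and 2 against H3K27Ac. The study describes the 2 libraries of an antibody as technical replicates, and there was 1 WT line. Both libraries of an antibody were merged by the authors into 1 peak list with an irreproducible discovery rate (IDR) below 0.05. No test over samples could therefore be made, and intervals given below are 95% intervals that cover counting error only. The H3K4me3 list held 34823 peaks over 64.5 Mb and the H3K27Ac list 13922 peaks over 22.4 Mb. Read numbers were not analysed here, so the depth of each library is unknown, and a mark absent from a list may lie under its calling threshold.

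H3K4me3 is laid down around the start sites of genes by the SET1 and MLL family of methyltransferases, which are recruited in part through CpG-rich DNA. H3K27Ac is written by the acetyltransferases p300 and CBP at active promoters and at active enhancers, and it cannot coexist with methylation of the same residue by Polycomb. In embryonic stem cells, many promoters of developmental regulators are known to carry H3K4me3 together with Polycomb marks while the gene is held silent.

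The 200 bases upstream of the TSS of 1 gene per class are shown as examples, with each CpG dinucleotide in capitals. Pou5f1 stands for both marks (mm9 chr17:35642782-35642981, + strand), Eomes for H3K4me3 only (mm9 chr9:118387130-118387329, + strand), Gm17448 for H3K27Ac only (mm9 chr5:30387239-30387438, + strand) and Alb for neither (mm9 chr5:90889715-90889914, + strand).
Pou5f1: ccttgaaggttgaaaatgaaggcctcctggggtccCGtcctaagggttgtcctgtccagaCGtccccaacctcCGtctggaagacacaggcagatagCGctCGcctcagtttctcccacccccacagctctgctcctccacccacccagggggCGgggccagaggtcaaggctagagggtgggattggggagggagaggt
Eomes: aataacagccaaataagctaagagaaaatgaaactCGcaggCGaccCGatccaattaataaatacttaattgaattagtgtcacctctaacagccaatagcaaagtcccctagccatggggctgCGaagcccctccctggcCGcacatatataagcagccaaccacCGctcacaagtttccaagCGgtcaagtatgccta
Gm17448: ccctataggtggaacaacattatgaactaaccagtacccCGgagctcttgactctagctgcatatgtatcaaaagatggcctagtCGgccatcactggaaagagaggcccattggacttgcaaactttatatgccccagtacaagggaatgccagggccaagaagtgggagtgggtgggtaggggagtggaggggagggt
Alb: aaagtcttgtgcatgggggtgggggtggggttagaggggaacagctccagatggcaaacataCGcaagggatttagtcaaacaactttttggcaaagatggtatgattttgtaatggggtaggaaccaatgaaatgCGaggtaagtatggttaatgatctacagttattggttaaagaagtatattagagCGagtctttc
These windows held 6, 7, 2 and 3 CpGs respectively. The ratio of observed to expected CpGs within 500 bp of the TSS was 0.335 at Pou5f1, 0.622 at Eomes, 0.279 at Gm17448 and 0.314 at Alb. Pou5f1 was thus poorer in CpG than most promoters of its class, whose lower quartile was 0.664. Alb was richer than most of its class, whose upper quartile was 0.275. These genes therefore do not represent their classes, whose medians are given below.

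The classes were first set against cell type markers. These are not independent of the lists below, since the mESC markers are counted again as pluripotency genes and lineage markers such as Eomes as developmental regulators. Of the 10 markers of mESCs listed, 9 were in the annotation, and all 9 carried both marks (Pou5f1, Nanog, Sox2, Klf4, Esrrb, Zfp42, Dppa5a, Tdgf1 and Utf1). Of 23 genes that mark fibroblast feeders, endoderm, trophectoderm or neural cells, 0 carried H3K27Ac, while 17 carried H3K4me3 only and 6 carried neither. The 17 included the endoderm regulators Gata4, Gata6, Sox17 and Foxa2, the trophectoderm regulators Cdx2 and Eomes, and the neural genes Pax6 and Neurod1. The fibroblast matrix genes Col3a1, Dcn, Lum and Postn were among the 6 without a peak. The other fibroblast markers were Col1a1, Col1a2, Thy1 and Twist2, and some of these were among the 17 with H3K4me3 only.

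H3K27Ac was nested within H3K4me3 at promoters and not the reverse. Of 14574 promoters with H3K4me3, 29.1% (28.3 to 29.8) also had H3K27Ac, whereas 98.9% (98.5 to 99.2) of 4282 promoters with H3K27Ac also had H3K4me3. The H3K4me3 list was the longer, and when its strongest peaks alone were kept, up to the length of the H3K27Ac list, the shares were 33.4% and 91.0%. Neighbouring genes shared peaks, so the 4235 genes with both marks rested on 3625 H3K4me3 peaks and 3646 H3K27Ac peaks, and the 10339 genes with H3K4me3 only on 9542 peaks.

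**Figure D1:**
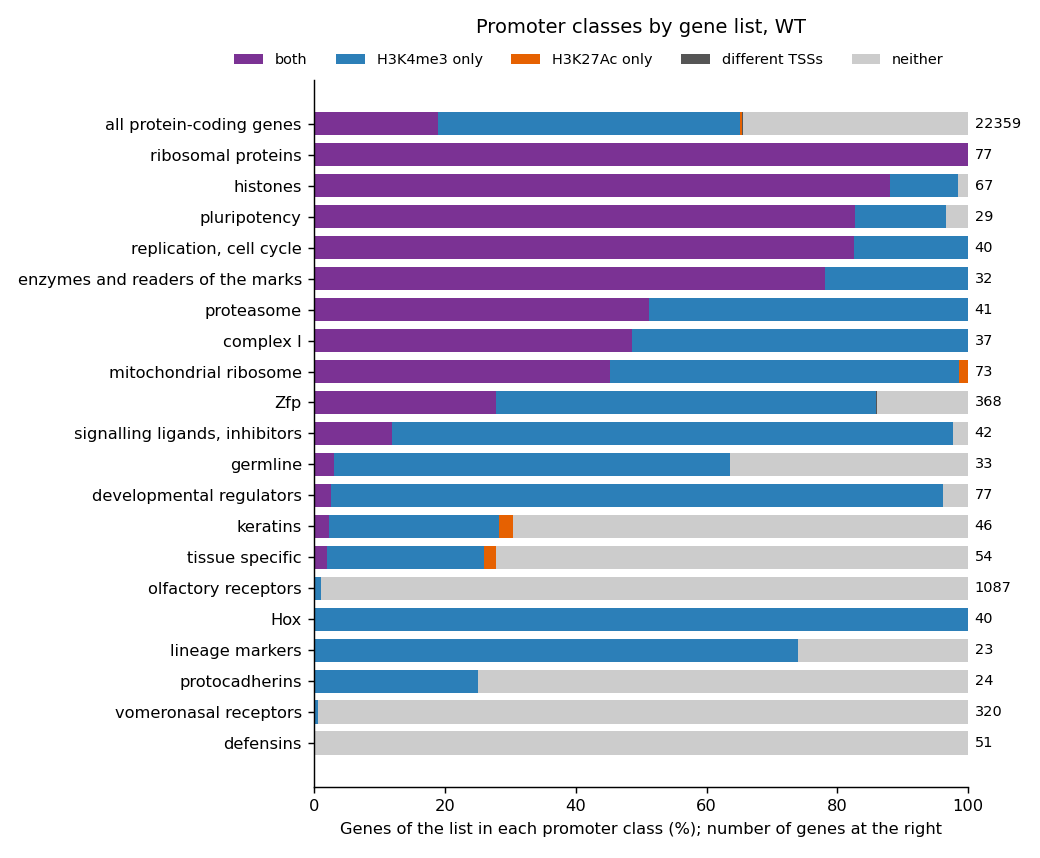
Each bar shows, for 1 gene list, the percentage of its genes in each promoter class, with the number of genes at the right. Ribosomal protein genes all carried both marks, Hox genes all carried H3K4me3 only, and all 51 defensin genes carried neither.

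Genes of the naive pluripotent state mostly held both marks, and their acetylation was among the strongest in the list. Of 29 such genes, 24 carried both marks, against 18.9% of all genes, 4 carried H3K4me3 only and 1, Rex2, carried neither. Peaks were ranked within their own list by the mean score of both libraries, as a percentile from 0 (weakest) to 100. The 24 genes with both marks had H3K27Ac percentiles from 38.9 at Dppa3 to 99.96 at Sox2, with a median of 95.3, against a median of 67.1 over all promoters with both marks. By the libraries alone the median for the 24 was 92.8 and 93.8. Their H3K4me3 percentile had a median of 81.6 against 87.0 over all promoters with both marks.

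Pou5f1, which encodes Oct4, ranked at 99.98 and 97.6 for H3K27Ac in the first and second listed library and at 69.2 and 88.1 for H3K4me3. Its H3K27Ac peak was 11457 bp wide and its H3K4me3 peak 8499 bp. Sox2, the partner of Oct4, ranked at 100.0 and 98.5 for H3K27Ac and at 99.97 and 99.9 for H3K4me3, so that both marks were near the top of their lists in both libraries. Nanog, a homeobox factor of the same network, ranked at 91.7 and 99.7 for H3K27Ac and at 81.3 and 85.9 for H3K4me3. Tet1, a 5-methylcytosine oxidase, showed the widest gap between the marks. It ranked at 99.8 and 99.8 for H3K27Ac and at 34.3 and 21.2 for H3K4me3. Its strongest peaks of the 2 marks lay at different start sites of the gene, H3K4me3 at chromosome 10, 62339539 to 62342548, and H3K27Ac at 62355737 to 62362097. The reverse was seen at Klf4, a zinc finger factor, which ranked at 99.9 and 92.1 for H3K4me3 and at 66.3 and 37.3 for H3K27Ac. Its 2 libraries lay far apart for H3K27Ac, but both lay below either H3K4me3 value.

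The 4 pluripotency genes with H3K4me3 only were Nr0b1, Gbx2, Tcl1 and Prdm14. Their H3K4me3 percentiles were 90.5 at Nr0b1, an X-linked nuclear receptor, 75.98 at the homeobox gene Gbx2, 54.7 at Tcl1, a coactivator of the Akt kinase, and 66.996 at Prdm14. The nearest H3K27Ac lay 2200 bp from a TSS of Gbx2 and 18982 bp from that of Prdm14, and none was found within 100 kb of Nr0b1 or Tcl1. Prdm14, a repressor of differentiation genes, was also the gene nearest to the strongest distal H3K27Ac peak without H3K4me3. That peak lay at chromosome 1, 13084012 to 13084586, 32.9 kb from the TSS, at percentiles 99.8 and 99.9. Whether it acts on Prdm14 was not tested.

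Growth genes were acetylated to differing degrees. All 77 cytosolic ribosomal protein genes carried both marks, with a median percentile of 95.2 for H3K4me3 and 94.2 for H3K27Ac, and 57 of them lay above percentile 90 for H3K27Ac. The share above that percentile was 18.02% over all promoters with both marks. Rpl13a and Rpl17, of the large subunit, were among the 4 highest for H3K27Ac. Of 67 replication-dependent histone genes, 59 carried both marks, and here the marks differed in rank. The median percentile was 80.4 for H3K27Ac and 53.6 for H3K4me3, over H3K4me3 peaks of a median width of 1351 bp. The 59 genes shared 39 H3K4me3 peaks and 36 H3K27Ac peaks, so they are not independent. Of 40 replication and cell cycle genes, 33 carried both marks and 7 carried H3K4me3 only. The strongest by H3K27Ac were Ccnb1 (percentile 98.7), Ccnd1 (98.3), which encode cyclins, and Mcm5 (97.6) and Mcm2 (96.9) of the replicative helicase.

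Other housekeeping complexes divided almost evenly between the classes although nearly all carried H3K4me3. Of 41 proteasome genes, 21 carried both marks and 20 H3K4me3 only. For the subunits of respiratory complex I the counts were 18 and 19, and for the mitochondrial ribosome they were 33 and 39, with 1 gene, Mrpl11, in the class with H3K27Ac only. Of the genes with H3K4me3 in these lists, 51.2%, 48.6% and 45.8% also had H3K27Ac, above the 29.1% of all promoters with H3K4me3. Complex I genes without H3K27Ac had a median H3K4me3 percentile of 91.4 by mean score against 89.2 for those with both marks, but the order was the reverse in each library alone (90.05 against 90.8 and 85.7 against 85.8), and their peaks were narrower, at 3142 against 3737 bp. Lists made of genes that every cell uses thus ranged from 45.2% to 100.0% with both marks, against 18.9% of all genes.

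The enzymes and readers of these marks were mostly acetylated themselves. Of 32 genes, 25 carried both marks and 7 carried H3K4me3 only. Of the methyltransferases, Mll1, Mll2, Mll3, Setd1a and Setd1b carried both, as did their shared subunits Wdr5, Ash2l, Rbbp5 and Dpy30, while Cxxc1, the CpG-binding subunit, carried H3K4me3 only. The acetyltransferase genes differed from each other. Ep300 had an H3K27Ac peak at percentiles 96.5 and 99.7 in the 2 libraries, whereas Crebbp had none within 100 kb, with H3K4me3 at 66.96 and 86.2. The Polycomb genes Ezh2, Eed and Suz12 carried both marks. Brd2, a reader of acetylated histones, had the highest H3K27Ac of the list by mean score and in the second library, though not in the first (95.8 and 99.99), over a broad H3K4me3 peak of 12058 bp. Among the demethylases, Kdm5a, Kdm5b, Kdm5c, Kdm1a and Kdm6a carried both marks and Kdm6b and Phf2 carried H3K4me3 only. The other genes with H3K4me3 only were the deacetylases Hdac3 and Sirt1 and the H3K4me3 reader Taf3. At Kdm6b and Cxxc1 an H3K27Ac peak lay just outside the window, at 1339 and 1914 bp.

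Regulators of development mostly lacked acetylation. Of 77 lineage transcription factors, 72 carried H3K4me3 only, against 46.2% of all genes, 2 carried both marks and 3 (Myf5, Hnf4a and Gata1) carried neither. The 72 had H3K4me3 percentiles from 10.1 to 94.7 with a median of 66.96, below the median of 75.3 for the class, while their median width of 2955 bp was above the 2368 bp of the class. Among the highest were Eomes (94.7), Dlx1 (93.4) and Sox9 (90.1). The 2 exceptions were the neural regulators Olig2 and Zic2, with H3K27Ac at percentiles 89.0 and 44.5. All 40 Hox genes carried H3K4me3 only, over 38 peaks with a median width of 2095.5 bp and a median percentile of 58.3. No distal H3K27Ac peak lay within 50 kb of the TSS of any of the 40, against 27.8% of all promoters with H3K4me3 only. The 40 genes lie in 4 clusters, so these stretches of 50 kb overlap and the genes are not independent.

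Among 42 signalling ligands and their antagonists, 36 carried H3K4me3 only, 5 carried both marks and Cer1 carried neither. The strongest by H3K27Ac were Nodal at percentile 96.5, the Notch ligand Jag1 at 69.7, the activin subunit Inhbb at 61.1 and the Nodal antagonist Lefty2 at 56.8. Bmp6 (95.8), Nog (94.6), Chrd (93.6) and Fgf3 (91.1) had the highest H3K4me3 among those without acetylation.

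Germline genes with H3K4me3 had narrow, weak peaks, and most genes of single tissues had none. Of 33 germline genes, 20 carried H3K4me3 only, 12 (36.4%) carried neither, close to the 34.5% of all genes, and 1, Dmc1, carried both. The 20 had a median H3K4me3 width of 925.5 bp and a median percentile of 37.7, the lowest of the lists with 20 or more such genes. Of the lists with fewer, olfactory receptors (10 genes, 898 bp, percentile 26.2) and keratins (12 genes, 945.5 bp, percentile 36.6) ranked lower still. The other shorter lists ranked higher, although the peaks of 7 histone genes were narrower, at 844 bp. Of 54 genes of single differentiated tissues, 39 carried neither mark, 13 carried H3K4me3 only, Nphs1 carried both and Mb carried H3K27Ac only. Olfactory receptors (1076 of 1087), vomeronasal receptors (318 of 320) and defensins (51 of 51) were almost all without a peak, and H3K9me3 lay within 1 kb of 11.96%, 29.4% and 39.2% of these lists, against 7.94% of all genes and 19.2% of promoters with neither mark. Clustered protocadherins had 18 of 24 genes without a mark and 6 with H3K4me3 only, with 0 at H3K9me3. The Zfp genes were mixed, with 102 of 368 carrying both marks, 214 H3K4me3 only and 51 neither.

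The H3K4me3 peaks of promoters with both marks were wider and ranked higher than those with H3K4me3 only. The median width was 3725 bp (3669 to 3785) against 2368 bp (2343 to 2394), with quartiles of 2846.5 and 4818.5 bp against 1685 and 3142 bp. The median score percentile was 87.0 (86.3 to 87.5) against 75.3 (74.8 to 75.8). In the first listed library the values were 85.2 and 74.5, and in the second 85.8 and 75.2. The libraries thus differed by less than the classes, but the IDR filter had kept peaks on which they agree. Their closeness is therefore no measure of experimental spread. The quartile ranges overlapped widely, and 1961 promoters with H3K4me3 only (18.97%) lay above percentile 90, compared with 1753 (41.4%) of those with both marks. The difference of 11.6 points between the medians became 7.12 when the H3K4me3 list was cut to the H3K27Ac length.

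**Figure D2:**
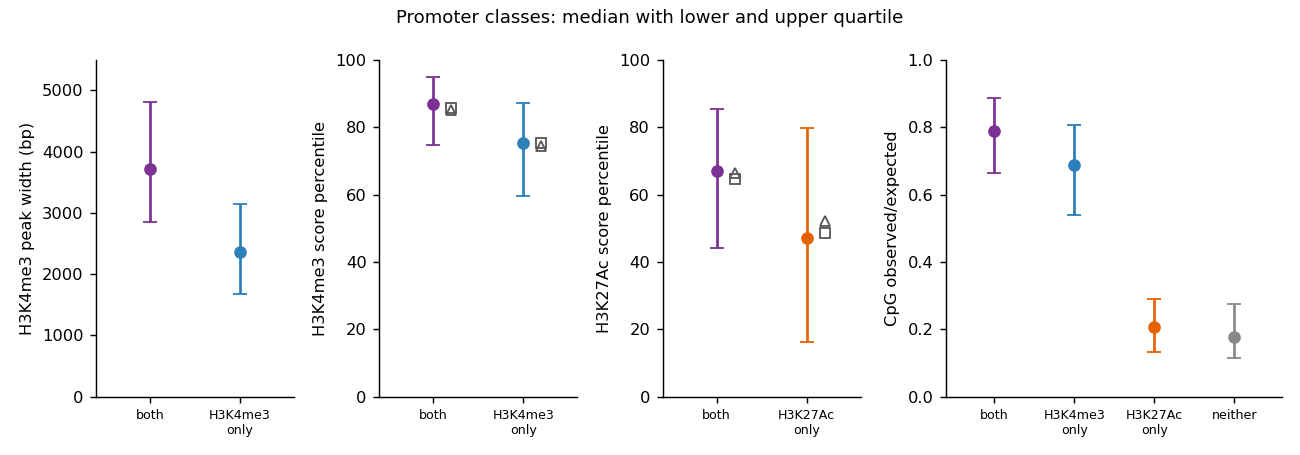
Points give the median and bars the lower and upper quartile of H3K4me3 width (bp), score percentiles and CpG observed over expected for each promoter class, and open triangles and squares give the median percentile by the first and second listed library alone. H3K4me3 was wider at promoters with both marks (3725 against 2368 bp), and CpG content fell into a pair of levels, high with H3K4me3 and low without it.

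The share of H3K4me3 promoters with acetylation was higher where the peak was stronger and where it was wider. Across deciles of H3K4me3 score, the share with H3K27Ac went from 8.71% (7.37 to 10.3) in the lowest to 57.2% (54.6 to 59.7) in the highest. Across deciles of width it went from 6.58% (5.42 to 7.97) to 69.3% (66.9 to 71.7). When both were cut into 4 groups of equal size, the widest peaks of the weakest group carried H3K27Ac at 40.8% of 449 promoters, while the narrowest peaks of the strongest group did so at 21.5% of 330. The corners stood at 5.80% of 1999 promoters, weak and narrow, and 69.0% of 1302 promoters, strong and wide. Even in the highest decile by score, 624 of 1458 promoters had no H3K27Ac peak.

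**Figure D3:**
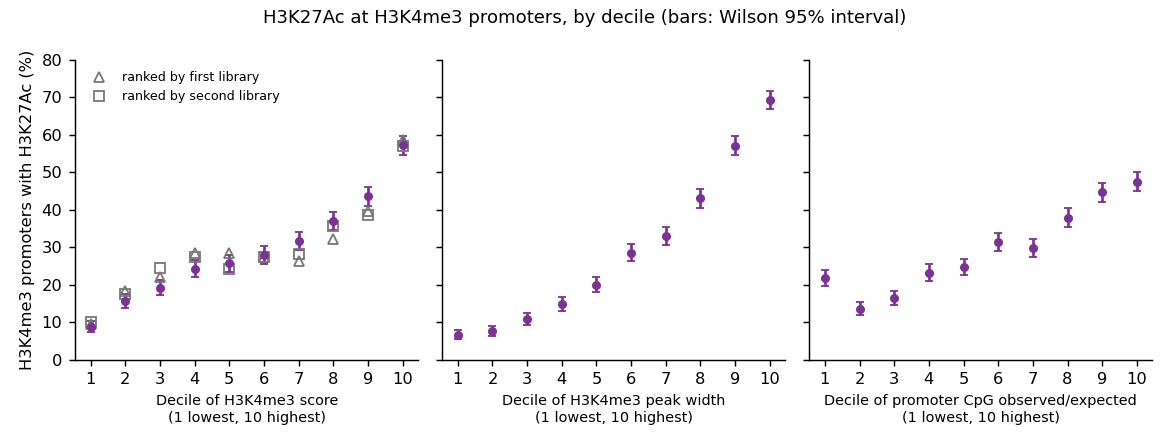
Each point is the percentage of H3K4me3 promoters that also had H3K27Ac in 1 decile of H3K4me3 score, H3K4me3 width or promoter CpG content, with Wilson 95% intervals, and open symbols use the score of 1 library alone. The share ran from 8.71% to 57.2% over score and from 6.58% to 69.3% over width, while the lowest decile by CpG (21.7%) stood above the second (13.5%).

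Strong H3K4me3 without acetylation was found at Adarb1, which encodes an RNA-editing deaminase, at chromosome 10, 76879207 to 76882153. Its peak, 2947 bp wide, stood at percentiles 99.98 and 99.99 in the 2 libraries, and no H3K27Ac lay within 100 kb. Pitpna, a phosphatidylinositol transfer protein gene (chromosome 11, 75401220 to 75403939), and Leo1, a subunit of the PAF1 elongation complex (chromosome 9, 75288817 to 75291418), stood at mean-score percentiles of 99.97 and 99.93, with the nearest H3K27Ac at 31154 and 27343 bp. Fcgr3 and 2310047M10Rik completed the 5 strongest. The widest was a peak of 14484 bp on chromosome 7, 4860514 to 4874997, over Zfp628 and Nat14, which stood at percentile 63.1 and 90.1 in the 2 libraries. At Jmjd8, the peak was 14296 bp wide.

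The strongest H3K27Ac peak near a promoter lay on chromosome 7, 140311842 to 140315155, within the gene Ctbp2, which encodes a corepressor. The annotation also places the start of a transcript of Fgfr2 there, far from its other start sites, so that the call for Fgfr2 is uncertain. Nsd1, a histone methyltransferase gene, Mllt6 and the promoter of Rpl13a followed, at mean-score percentiles of 99.98 to 99.99. Mllt6, a gene fused to Mll in leukaemia, had a wide acetylated region of 13069 bp (chromosome 11, 97519458 to 97532526) that enclosed its H3K4me3 peak of 9128 bp. The widest H3K4me3 with acetylation measured 14995 bp (chromosome 6, 117856636 to 117871630), at Hnrnpf and 4933440N22Rik, around an H3K27Ac peak of only 2066 bp.

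At promoters with both marks, acetylation occupied a part of the methylated region, just downstream of the TSS. The H3K27Ac peak lay entirely inside the H3K4me3 peak at 83.8% (82.7 to 84.9) of the 4235 promoters, and its width was a median of 0.331 of the H3K4me3 width. It was the wider of the pair at 6.09%. The TSS itself lay inside the strongest H3K4me3 peak at 95.3% of promoters and inside the strongest H3K27Ac peak at 53.8%. The centre of the H3K27Ac peak lay a median of 345.5 bp downstream of the TSS (330.5 to 361.5) and that of the H3K4me3 peak 631 bp (606.5 to 653.5), compared with 396 bp at promoters with H3K4me3 only. Coverage by H3K27Ac was highest 250 bp downstream, at 82.2% of promoters, was 43.5% at 150 bp upstream, and reached 46.9% at 350 bp upstream. At 18.1% of the promoters, 2 or more H3K27Ac peaks lay within 1 kb.

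**Figure D4:**
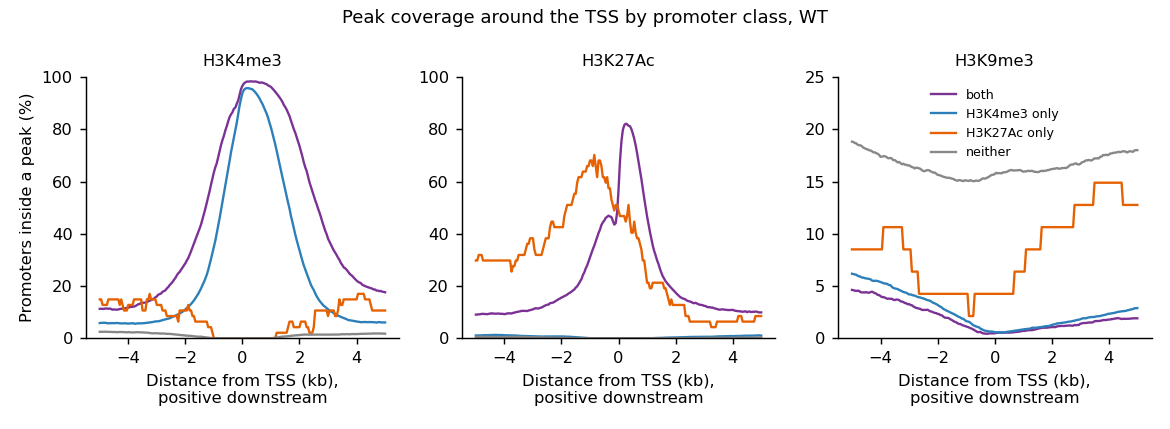
Lines give the percentage of promoters whose position at each distance from the TSS (kb, positive downstream) lay inside a peak, for each class and mark, with a smaller scale for H3K9me3. At promoters with both marks H3K27Ac had a main maximum of 82.2% at 250 bp downstream and a lower shoulder upstream, while H3K4me3 stayed near its maximum of 98.4% over a wider stretch.

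The base composition of promoters separated H3K4me3 from its absence more than it separated acetylated from unacetylated H3K4me3. Median CpG observed over expected was 0.787 (0.780 to 0.794) with both marks, 0.687 (0.683 to 0.692) with H3K4me3 only, 0.207 (0.160 to 0.241) with H3K27Ac only and 0.177 (0.175 to 0.180) with neither. A CpG-rich window (a ratio above 0.6 with over 50% GC within 500 bp of the TSS) was found at 81.5%, 64.4%, 8.51% and 0.454% of the classes. Among H3K4me3 promoters the share with H3K27Ac was 47.5% in the richest decile by CpG and 21.7% in the poorest, with the lowest value, 13.5%, in the second. The pluripotency genes had a median ratio of 0.602, below that of either class with H3K4me3. Genes with both marks were a median of 19.3 kb long, those with H3K4me3 only 24.6 kb and those with neither 5.69 kb. A gene on the other strand started within 1 kb at 24.2% of promoters with both marks and at 13.1% of those with H3K4me3 only. The sequence TATAAA, searched on the gene's strand from 40 to 20 bp upstream of the TSS, was found at 0.850% of promoters with both marks, 1.04% with H3K4me3 only, 4.93% with neither and 2.34% of all.

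Acetylated promoters also lay near distal acetylation. A distal H3K27Ac peak was found within 50 kb of the TSS for 58.9% (57.4 to 60.4) of genes with both marks, 27.8% (26.9 to 28.7) with H3K4me3 only and 14.2% (13.4 to 15.0) with neither. Peaks just beyond 1 kb counted as distal, so the part of flanking peaks of the same acetylated region was not tested. Oct4, which had 1 list per library, lay within 1 kb of 16.2% of promoters with both marks in WT replicate 1 and 6.07% in replicate 2, against 7.31% and 3.98% with H3K4me3 only. The Oct4 libraries differed, since replicate 1 held 1806 peaks and lay at 1453 of all promoters, while replicate 2 held 4111 and lay at 687. Both placed promoters with both marks above those with H3K4me3 only.

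The 47 genes with H3K27Ac only mostly had CpG-poor promoters, although 6 had a ratio above 0.5. The class was sensitive to the H3K4me3 list, and held 98 genes within the stronger 50% of each list and 382 with the H3K4me3 list cut to the H3K27Ac length. The H3K27Ac peaks of the 47, 44 in number, had a median width of 1190 bp (800 to 1648) against 1189 bp at promoters with both marks. Their median percentile was 47.2 (28.3 to 74.9) against 67.1 (65.9 to 68.4). These intervals overlapped, and the difference was not tested. Coverage by H3K27Ac was highest 850 bp upstream of the TSS rather than downstream, at 70.2% of the 47, and 23 had a TSS inside the peak. A distal H3K27Ac peak lay within 50 kb of 83.0% (69.9 to 91.1) of them. All 47 had an H3K4me3 peak within 100 kb, at a median of 5307 bp, and 11 had one beyond the window but within 2500 bp. The strongest were Gm17448 (percentile 96.7), Lax1 (95.5), a lymphocyte adaptor gene, Igll1 (94.5), part of the surrogate light chain of B cell precursors, Ubd (92.9), a ubiquitin-like gene, and Gm17650 (92.8). The widest peak, 10091 bp on chromosome 17, 57007298 to 57017388, covered Acsbg2 and 1700061G19Rik.

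H3K9me3, a mark of silenced chromatin, was rare at methylated promoters and more frequent at unmarked ones. It lay within 1 kb of 1.56% (1.23 to 1.98) of promoters with both marks, 2.14% (1.88 to 2.43) with H3K4me3 only, 8.51% (3.36 to 19.9) with H3K27Ac only, which was 4 genes, and 19.2% (18.4 to 20.1) with neither. Nanog and Rex2 were the pluripotency genes with H3K9me3 within 1 kb, the former with both active marks and the latter with neither. H3K9me3 domains spanned a median of 5400 bp, so proximity within 1 kb does not place the marks on the same nucleosome. The 53745 domains covered 394.3 Mb. The share expected from that coverage alone was not computed for promoters or distal peaks, so enrichment at unmarked promoters was not tested.

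The X chromosome carried fewer acetylated promoters than any autosome. Of its 431 promoters with H3K4me3, 46 (10.7%, 8.10 to 13.9) also had H3K27Ac, compared with 29.6% (28.9 to 30.4) on the autosomes, which ranged from 22.6% on chromosome 12 to 36.7% on chromosome 17. The H3K4me3 peaks of the X also ranked lower, at a median percentile of 52.7 against 79.5, with autosomes between 76.3 and 82.5, and were narrower, at 1667 bp against 2729 bp. The X promoters with both marks included the demethylase genes Kdm5c and Kdm6a. Depth per copy of the X was not analysed here, and the part of signal strength in this difference was not tested.

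Away from promoters the marks overlapped less. Of 9185 distal H3K27Ac peaks, 3475 (37.8%, 36.8 to 38.8) overlapped H3K4me3 and 5710 (62.2%) stood alone. Of 19357 distal H3K4me3 peaks, 3372 (17.4%, 16.9 to 17.96) overlapped H3K27Ac and 15985 (82.6%) stood alone. These shares depended on the weaker peaks, and within the stronger 50% of each list they were 18.2% of distal H3K27Ac and 10.8% of distal H3K4me3 peaks. With the H3K4me3 list cut to the H3K27Ac length they were 10.7% and 15.9%. The overlap was higher where acetylation was stronger, from 20.2% (17.8 to 23.0) of the weakest decile of distal H3K27Ac peaks to 65.8% (62.7 to 68.8) of the strongest. At promoters, 82.5% of the weakest decile and 98.7% of the strongest decile of H3K27Ac peaks overlapped H3K4me3.

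Distal sites with both marks ranked higher for acetylation, and slightly lower for methylation, than distal sites with 1 mark alone. As H3K27Ac peaks they had a median percentile of 56.0 (54.1 to 57.2) and a median width of 1480 bp, against 35.7 (34.3 to 36.7) and 1017 bp for H3K27Ac alone. As H3K4me3 peaks they had a median percentile of 29.2 (28.2 to 30.2), below the 33.3 (32.7 to 33.8) of H3K4me3 alone, although they were wider, at 1250 bp against 967 bp. The order held in both libraries, with H3K27Ac at 55.5 and 55.0 against 35.8 and 39.9, and H3K4me3 at 31.4 and 28.9 against 33.1 and 33.9. Promoter H3K27Ac peaks with H3K4me3 ranked above all of these, at a median percentile of 63.7, a difference of 28.1 from distal H3K27Ac alone that became 11.3 at an IDR below 0.01 and 5.46 in the stronger 50% of each list. An IDR above 0.01 was found for 40.9% of distal H3K27Ac peaks and 18.3% of those that stood for promoters, and for 25.2% and 1.26% of H3K4me3 peaks.

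**Figure D5:**
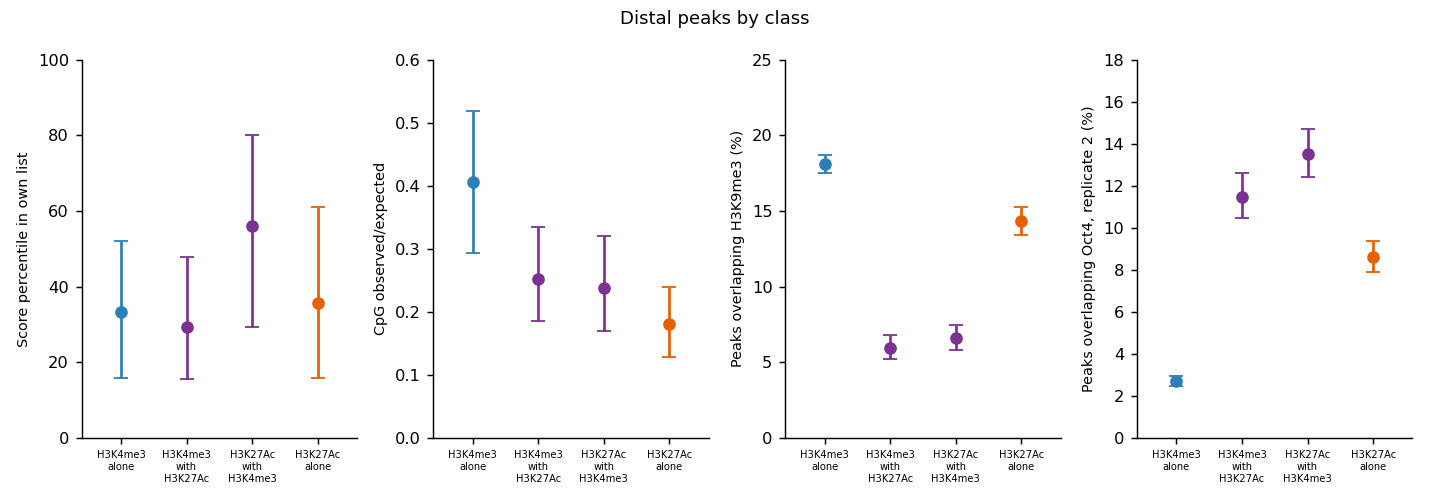
For distal peaks of each class, points give the median with quartiles of the score percentile in the peak's own list and of CpG observed over expected, and the percentage overlapping H3K9me3 or Oct4 (replicate 2) with Wilson 95% intervals. Sites with both marks appear once as H3K4me3 and once as H3K27Ac peaks. H3K4me3 alone had the highest CpG content (0.405) and H3K9me3 overlap (18.1%) and the lowest Oct4 overlap (2.70%).

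The distal classes differed in base composition and in the share of peaks that overlapped Oct4. Median CpG observed over expected was 0.405 (0.402 to 0.408) at distal H3K4me3 alone, 0.252 and 0.237 at sites with both marks, and 0.180 (0.177 to 0.183) at H3K27Ac alone. A CpG-rich window was found at 11.03%, 4.15%, 4.81% and 0.105% of these peaks. Oct4 of replicate 2 overlapped 13.5% (12.4 to 14.7) of distal H3K27Ac peaks with H3K4me3, 8.62% (7.92 to 9.37) of those without and 2.70% (2.46 to 2.96) of distal H3K4me3 peaks alone. The H3K27Ac peaks with H3K4me3 were wider than those without, at a median of 1480 against 1017 bp. By covered length they were close, with 470 peaks at Oct4 over 7.28 Mb against 492 over 7.53 Mb. For distal H3K4me3 alone there were 431 over 18.2 Mb. In replicate 1, whose peaks lay mostly at promoters, the shares were 2.27%, 0.911% and 0.375%. The octamer ATGCAAAT, a sequence known to bind Oct4, was searched on both strands within 250 bp of the peak centre. It was found at 2.38% (2.02 to 2.81) of distal H3K27Ac peaks alone, 2.01% (1.60 to 2.54) of those with H3K4me3, 0.957% (0.711 to 1.29) of promoter H3K27Ac peaks with H3K4me3 and 1.81% of all H3K27Ac peaks.

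The strongest distal sites with both marks included neighbours of pluripotency genes. One lay inside Esrrb (chromosome 12, 87842827 to 87845633), 33.2 kb from its nearest TSS, at percentiles 99.8 and 99.9. Another spanned 17138 bp on chromosome 4, 55477382 to 55494519, 58.7 kb from Klf4, at 99.4 and 99.99. The site nearest to Epha2, an ephrin receptor gene, covered 15065 bp (chromosome 4, 140832544 to 140847608), and sites near Cbfa2t2 and Polr3k completed the 5. All 5 overlapped Oct4 of replicate 2. Among sites with H3K27Ac alone, those nearest to Prdm14, Kdelr2, Bcas2, Klf2 and Cenpo ranked highest. The Klf2 site, 7452 bp wide and 13.7 kb from the TSS, overlapped Oct4 of replicate 2.

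Distal H3K4me3 alone was a mixed class. H3K9me3 overlapped 2898 of the 15985 peaks (18.1%, 17.5 to 18.7), compared with 5.93% (5.18 to 6.78) of distal H3K4me3 peaks with H3K27Ac. Within the stronger 50% of the list the share was 32.9%, and 34.9% with the list cut to the H3K27Ac length. The 2898 ranked higher than the rest, at a median percentile of 50.7 against 29.4, were richer in CpG, at 0.505 against 0.375, and lay less often inside a gene, at 23.7% against 57.6%. A TSS of another gene type lay within 1 kb of 5.82%, and 1763 had a CpG-rich window, with a median percentile of 61.1. This left 11078 peaks (69.3%) with none of these features, with a median width of 890 bp and a median percentile of 26.01. The strongest lay near Baz2b, Pdia4 (2 peaks), Gm13235 and Vps13d, and that near Gm13235 overlapped H3K9me3. H3K9me3 also overlapped 14.3% (13.4 to 15.3) of distal H3K27Ac peaks alone and 6.59% (5.81 to 7.46) of those with H3K4me3. The study describes alignments of unique pairs and others that keep reads from repeats, and which of them gave these lists is not stated.

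Few genes lay near the limit of 1 kb. The nearest H3K27Ac peak lay in the last 100 bp inside it for 17 genes and in the first 100 bp outside it for 18, with a median CpG ratio of 0.595 and 0.594. For H3K4me3 the counts were 20 and 21, with ratios of 0.201 and 0.207. Of the promoters with H3K4me3 only, 213 (2.06%) had H3K27Ac beyond 1 kb but within 2500 bp.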

How the data were processed

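The series measured H3K27Ac, H3K4me3, H3K9me3 and Oct4 by ChIP-seq in HATX mESCs, and only WT lists were used here. Paired reads were aligned to mm9 (Bowtie2) and stripped of duplicates (Picard) by the authors, whose peaks came from MACS2 (q-value 0.01, input as background). Their methods describe unique pairs and, in a second alignment, reads from repeats placed at random, and which of these gave the deposited lists is not stated. For H3K4me3 and H3K27Ac they kept those with an IDR under 0.05 between both libraries. Per deposited peak, these lists give a score for each library, whose MACS2 column is not stated, and other values, the IDR and the peak width. The deposited H3K9me3 list holds domains of joined 200 bp windows with a score, and its caller is not given in the sources used here. The deposited Oct4 lists give the fold enrichment over input. Scores served only for ranks within a list, H3K9me3 and Oct4 only by position.

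Protein-coding transcripts of GENCODE M1 gave 46015 TSSs of 22359 genes on placed chromosomes of mm9, the build of the lists, whereas 8 further genes had no protein-coding transcript. No peak of H3K4me3 or H3K27Ac ran past a chromosome end, whereas 5 H3K9me3 domains did, and 108 H3K4me3 and 14 H3K27Ac peaks on other sequences were left out. A gene had both marks if a single TSS lay within 1000 bp of a peak of each. The strongest peak at such a TSS stood for the gene, and the 5' most such TSS gave its CpG ratio. Distal peaks had no such TSS within 1000 bp, and an overlap of 1 bp counted. Shares carry Wilson 95% intervals and medians order-statistic 95% intervals. Python 3.11.15, numpy 2.4.6, scipy 1.17.1 and pandas 2.3.3 were used, and the code was tested on simulated data. The members and gene lists were chosen with earlier results of these data known. Named genes were those of the pluripotency, mark enzyme and lineage lists, up to 4 of each class of the other lists by score, and per class the 5 strongest and 3 widest, or for distal classes the 5 strongest. Tfcp2l1, Mll4, Sox1, Tfap2a, Tfap2c and Meioc were not analysed here, some genes that the rule names are not reported here, and Dab2 counts as 2 genes. Mb, Mrpl11, Cer1, Myf5, Hnf4a and Gata1 were named after their values were seen, because few genes of their list fell in their class. The alternatives were TSS windows of 500 and 2500 bp, IDR below 0.01, the stronger 50% of each list, equal list lengths, autosomes, 1 TSS per gene, 50% overlap, gaps up to 1000 bp, TSSs of any gene type, and ranking by 1 library.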

Additional observations from a re-analysis of the deposited data

How the results depend on the processing

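Each mark had 1 list per cell line, so shares were compared by counting error alone, and depth was unknown. No paired analysis was possible because no result came from a test over samples. Alternatives were run for the 10 measures below and for the class counts, not for the gene lists, the chromosomes, Oct4, the motifs, the geometry or the deciles. The measures that are differences kept their sign, which the shares and the width ratio could not change. With equal list lengths the order of the distal shares turned, to 10.7% of H3K27Ac against 15.9% of H3K4me3 peaks. The share of H3K4me3 promoters with H3K27Ac (29.1%) was 30.0% with a TSS window of 2500 bp, 24.1% at an IDR below 0.01, 22.2% in the stronger 50% of each list and 33.4% with the H3K4me3 list cut to the H3K27Ac length. The share of H3K27Ac promoters with H3K4me3 (98.9%) was 96.7% in the stronger 50% and 91.0% with equal lengths. The H3K27Ac-only class grew from 47 to 98 and 382 genes under these last settings, which remove H3K4me3 peaks. Distal H3K27Ac overlapping H3K4me3 (37.8%) was 39.1% at 500 bp, 35.4% at 2500 bp, 18.2% in the stronger 50%, 10.7% with equal lengths, 36.5% for 50% overlap, 48.9% with gaps up to 1000 bp and 35.5% away from TSSs of any gene type. Distal H3K4me3 overlapping H3K27Ac (17.4%) was 14.3% at the stricter IDR, 10.8% in the stronger 50%, 15.9% with equal lengths and 21.3% with gaps. The H3K4me3 percentile difference between promoters with both marks and H3K4me3 only (11.6) was 11.1 at the stricter IDR, 8.67 in the stronger 50%, 7.12 with equal lengths, 11.04 on autosomes, and 10.5 to 10.7 by a single library. The width ratio of these classes (1.57) was 1.501 in the stronger 50% and 1.47 with equal lengths. The H3K27Ac percentile difference between promoter peaks with H3K4me3 and distal peaks alone (28.1) was 11.3 at the stricter IDR, 5.46 in the stronger 50%, 23.01 with equal lengths, and 23.1 to 26.3 by a single library. The CpG ratio difference between both marks and neither (0.610) was 0.6003 at 2500 bp, 0.618 at the stricter IDR and 0.568 with equal lengths. H3K9me3 at promoters with neither mark (19.2%) was 17.4% at 500 bp, 25.5% at 2500 bp, 16.7% in the stronger 50% and 15.4% with equal lengths. H3K9me3 at distal H3K4me3 alone (18.1%) was 20.1% at 2500 bp, 21.4% at the stricter IDR, 32.9% in the stronger 50%, 34.9% with equal lengths, 17.4% on autosomes, 18.8% with gaps and 19.6% away from TSSs of any type. Where the construction of the setting does not show it, the cause was not tested.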
